A study of Rattus norvegicus with 6 samples.

Results

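The genes described here encode the working parts of the lysosome: proteases, glycosidases and lipid-handling enzymes, membrane proteins, the proton pump known as the V-ATPase, and the regulator and cargo proteins Tfeb, Sqstm1 and Grn. They were chosen by name, with earlier results of these data known, and each of the 37 names matched 1 of the 33589 rows of the gene table. The study compared mesenchymal stem cells from rat bone marrow (MSCs, progenitors of bone, cartilage and fat cells) held for 48 h in stiff SA hydrogel of 18 kPa with such cells held for 48 h in soft SA hydrogel of 2 kPa. Each group had 3 libraries here, whereas the study's design text gives replication in quadruplicate, and both groups shared the same low glucose medium with serum and antibiotics. Cells were taken out of the gel, and polyA RNA was made into libraries with a kit for single-cell RNA. The labels give neither the strain, age and number of animals nor whether replicates were separate cultures. The p-values therefore speak only of the spread among these libraries, and that spread may be technical.

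Lysosomes are acidic compartments in which proteins, glycans, lipids and worn-out organelles are broken down. The V-ATPase pumps protons into them, hydrolases that work in acid do the cutting, and heavily glycosylated membrane proteins shield the limiting membrane. Transcription factor EB, encoded by Tfeb, is known to bind CACGTG-containing elements near the start of many lysosomal genes, and in stromal cells the same hydrolases also serve turnover of collagen that the cells take up.

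Between stiff and soft gel 1 of the 37 lysosomal genes passed the test, a call that ended when any 1 library was left out, and most of the others had small log2 fold changes below 0. Ctsb, which encodes the cysteine protease cathepsin B, fell to 0.840 times its soft level. The proteases were the class with the lowest median log2 fold change, with all 9 below 0 and a class median of -0.14. Log2 fold changes lay within 0.1 of 0 for all 5 membrane proteins, 6 of 9 glycosidases and 4 of 6 V-ATPase subunits. Such small changes were found in 21 of the 37 genes and in 6403 of all 12713 genes tested. Of 5 lipid-handling genes, 4 lay above 0. Levels are in FPKM, the fragments counted per kilobase of gene and scaled to depth, so levels of different genes can be set side by side per length, and log2 fold changes are of FPKM + 1, stiff over soft. Each of the 37 averaged 1 FPKM or more and entered the test, which covered 12713 genes in limma with Benjamini-Hochberg adjustment.

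Over the 37 genes, 1 was called lower at an adjusted p under 0.05 and none higher, against a background of 0.425% of all genes tested called lower and 1.01% called higher. At an unadjusted p under 0.05, 12 were lower and none higher, while 6.95% of all genes tested were lower by that rule and 8.46% higher. The 12 became 6 without soft replicate 3, 7 without stiff replicate 1, 6 without stiff replicate 2 and 6 without the intensity trend. They became 15 with equal FPKM sums and 16 with quantile normalization, and lay between 8 and 13 in the other alternatives. In the 12 genes of the full data, and in no other of the 37, every stiff library lay below every soft library, a separation found in 10.9% of all genes tested, with 11.7% separated the other way. Log2 fold changes were below 0 for 30 of the 37 and for 49.6% of all genes tested, with a median of -0.08 over the 37 and 0.00 over all genes tested. Most of the 37 are abundant, and among the 3841 tested genes that averaged 20 FPKM or more, 39.2% lay below 0 and 6.95% were lower at an unadjusted p under 0.05. For the 36 genes that were not called, the 95% intervals of the log2 fold change lay between -0.67 and 0.36. With voom on recovered reads, 2 of the 37 were called lower and none higher. Over all genes tested, limma called 128 higher in stiff gel and 54 lower, a split that became 88 and 68 with equal FPKM sums, 103 and 68 with quantile normalization and 190 and 128 with voom.

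**Figure D1:**
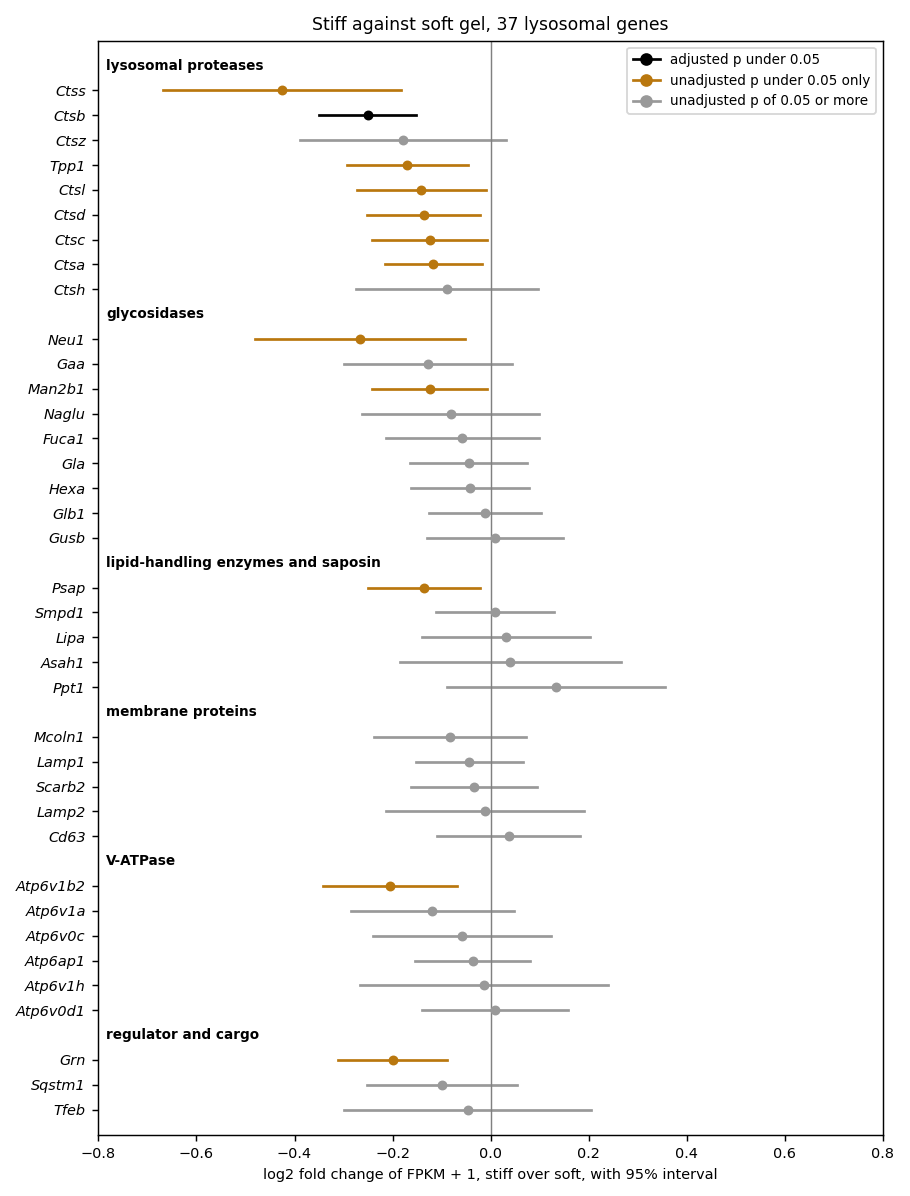
Log2 fold change of FPKM + 1, stiff over soft gel, for the 37 lysosomal genes in their 6 classes, with 95% intervals from limma that are not adjusted for the number of genes. Ctsb in black is the gene past an adjusted p of 0.05, the other 11 genes with an unadjusted p under 0.05 are in brown and lie below 0, and the rest are grey.

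The 37 genes were among the more abundant in these cells, with means over the 6 libraries from 4.97 FPKM for Tfeb to 1632 FPKM for Ctsb and a median of 104 FPKM. Of them, 5 ranked in the 100 most abundant rows of the table and 15 in the 500 most abundant. Their FPKM summed to 8629, 8461 and 8910.0 in the stiff libraries, against 9484, 9311 and 9420 in the soft libraries, so the groups did not overlap. All FPKM summed to between 467372 and 478304 in the stiff libraries, against 452787 to 457306 in the soft libraries. The 37 genes made up 1.85%, 1.80% and 1.86% of all FPKM in the stiff libraries, against 2.09%, 2.04% and 2.06% in the soft libraries. Ctsb, Psap, Ctsl and Cd63 alone made up between 51.1% and 52.4% of the sum in every library. Without Ctsb, the remaining 36 genes summed to 7135, 7005 and 7390 FPKM in the stiff libraries, against 7697, 7564 and 7634 FPKM in the soft libraries, and the groups again did not overlap. In bulk samples, fewer cells of a type and less RNA per cell cannot be told apart.

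**Figure D2:**
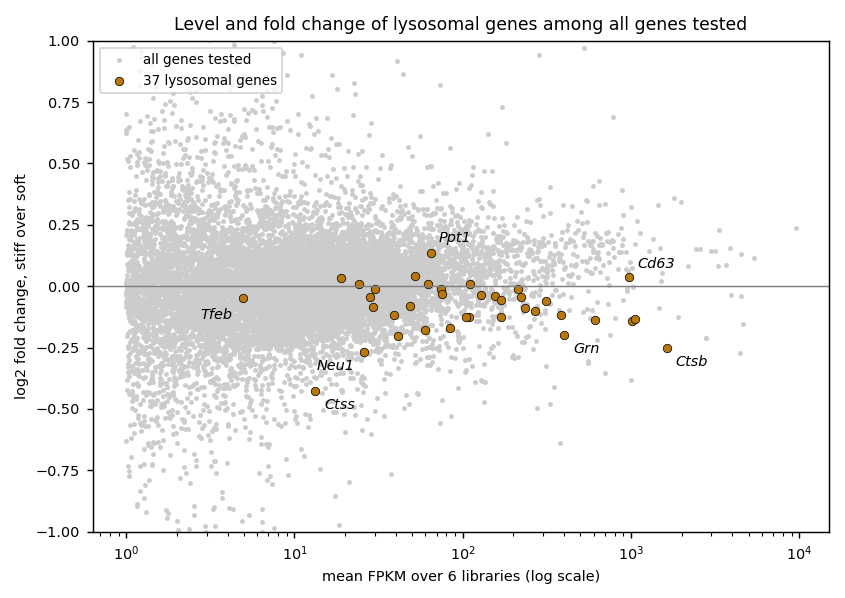
Mean FPKM over the 6 libraries (log scale) against the log2 fold change, stiff over soft gel, for all 12713 genes tested in grey and the 37 lysosomal genes in brown. Ctsb, Psap and Ctsl lie below 0 and Cd63 just above it, and 84 of all genes tested lie outside the plotted range of -1 to 1.

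Tfeb, the regulator of the class, was the least abundant of the 37. It had 5.21, 4.28 and 5.14 FPKM in stiff gel, against 5.66, 4.48 and 5.08 FPKM in soft gel, and the groups overlapped. Its log2 fold change was -0.05 with a 95% interval of -0.30 to 0.21, so neither a modest rise nor a modest fall of its RNA was detectable at this spread, and the sign turned without soft replicate 1 (0.02) and without stiff replicate 2 (0.03). Tfeb protein is known to be controlled mainly by phosphorylation and nuclear entry, which RNA levels do not measure. Tfe3, a close relative of Tfeb with the same target element, was at 24.5 FPKM in stiff gel and 26.3 FPKM in soft gel (log2 fold change -0.10, adjusted p = 0.473), and Mitf at 2.91 FPKM in stiff gel and 2.66 FPKM in soft gel.

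Promoter sequences are shown because the element that Tfeb binds, known as the CLEAR element and built around CACGTG, lies in promoters of this class. Promoters of 250 bases before and 50 after the gene start were matched by symbol for 30 of the 37 genes in RefSeq, build GRCr8, and Ctsb, Hexa, Asah1, Ppt1, Psap, Atp6v1b2 and Atp6v1h had no entry. CACGTG reads the same on both strands, and 7 of the 30 promoters (23.3%) held it at least once, against 9.69% of 8661 promoters of tested genes and 6.65% of all 27457 promoters. The longer TCACGTG, which contains CACGTG, was searched on both strands and was in 6 of the 30, 5.74% of tested genes' promoters and 3.43% of all. TCACGTGA, which contains both, was in 13.3% of the 30, 1.81% of tested genes' promoters and 0.867% of all. The matches follow, 5′ to 3′ on the gene's strand, with CACGTG in capitals and 12 bases on either side; Lamp1, with 5 matches, is given as 1 stretch from 195 to 21 bases before its start.
Ctsd, chr1:206968961-206968990, minus strand: tctttcttccccCACGTGactcgcatccag
Ctsd, chr1:206968814-206968843, minus strand: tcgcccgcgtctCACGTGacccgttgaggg
Glb1, chr8:122963606-122963635, plus strand: cggctccggagtCACGTGgcctgcagaggc
Gaa, chr10:105028276-105028305, plus strand: ccgcccacaaacCACGTGacccacgctgcc
Cd63, chr7:1921942-1921971, plus strand: ccgggcagcggcCACGTGgcctgtccaggc
Mcoln1, chr12:6358224-6358253, plus strand: cgtcaagcttgtCACGTGttcgacccaggc
Mcoln1, chr12:6358250-6358279, plus strand: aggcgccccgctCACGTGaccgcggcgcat
Atp6v0d1, chr19:50357283-50357312, minus strand: ccccattgtggtCACGTGagatgcagtgcg
Lamp1, chr16:83075084-83075258, minus strand: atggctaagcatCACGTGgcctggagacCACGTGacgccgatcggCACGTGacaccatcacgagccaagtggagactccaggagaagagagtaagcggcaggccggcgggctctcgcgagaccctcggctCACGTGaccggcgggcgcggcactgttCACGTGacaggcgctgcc
The first letter of the element stood 157 and 10 bases before the start in Ctsd, 100 in Glb1, 67 in Gaa, 190 in Cd63, 22 in Mcoln1 and 52 in Atp6v0d1, and the second in Mcoln1 began at base 5 after the start. A match is a description of these letters, not a measured binding site. The 7 genes with a match had a median log2 fold change of -0.04 (range -0.14 to 0.04), and the 23 without one had -0.09 (range -0.43 to 0.03). Of the 9 genes lower at an unadjusted p under 0.05 that had a promoter entry, 1, Ctsd, held the element.

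The lysosomal proteases were the class in which the groups separated most often, in 7 of 9 genes. Ctsb (ENSRNOG00000010331, chromosome 15 from 46316741 to 46337612, plus strand, with coordinates as the table gives them, no build being named) was the most abundant of the 37. It had 1494, 1456 and 1520.5 FPKM in stiff gel, against 1787, 1746 and 1786 FPKM in soft gel. Its means were 1490.1 ± 32.5 FPKM in stiff gel and 1773 ± 23.1 FPKM in soft gel (SD, n = 3 each), and the gap between the groups was several times the spread within either. The log2 fold change was -0.25 with a standard error of 0.0423 (adjusted p = 0.0417 in limma). The call ended whenever a library was left out, with an adjusted p of 0.0673 without soft replicate 1 and up to 0.206 without soft replicate 3, as it did without the filter on low values (0.228), the highest of all alternatives, without the intensity trend (0.118) and with the replicate number as a block (0.0632), the lowest being 0.00751 with array weights, while the log2 fold change stayed between -0.37 and -0.23 in every setting tried.

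Ctsl, which encodes the cysteine protease cathepsin L, had 919.8, 981 and 983 FPKM in stiff gel, against 996, 1102 and 1084 FPKM in soft gel. Ctsd, which encodes the aspartic protease cathepsin D, had 575, 568 and 612 FPKM in stiff gel, against 661, 627 and 642 FPKM in soft gel. Ctsa, whose product is a carboxypeptidase that also holds sialidase and beta-galactosidase in a stable complex, had 365, 362 and 375 FPKM in stiff gel, against 403, 393 and 399 FPKM in soft gel. In all 3 genes the highest stiff library lay below the lowest soft library, with log2 fold changes of -0.14, -0.14 and -0.12 and adjusted p of 0.30, 0.252 and 0.254 in limma. Ctsa overlaps the neighbouring Pltp by 157 bases on the opposite strand, and the sources used here do not say whether the counting used strand.

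Ctss (ENSRNOG00000021157, chromosome 2 from 197655786 to 197679458, plus strand), which encodes cathepsin S, a protease best known from macrophages and other antigen-presenting cells, had the lowest log2 fold change of the 37. It had 9.70, 11.4 and 12.4 FPKM in stiff gel, against 14.9, 14.2 and 16.9 FPKM in soft gel. Its means were 11.2 ± 1.38 FPKM in stiff gel and 15.3 ± 1.41 FPKM in soft gel (SD, n = 3 each), and the groups did not overlap. The log2 fold change was -0.43 with a 95% interval of -0.67 to -0.18 (adjusted p = 0.115 in limma), on 143 to 272 recovered reads per library, the fewest of the proteases. The summed level of macrophage markers, at 417 to 445 FPKM in stiff gel and 473 to 480.1 FPKM in soft gel, differed in the same direction. Of the 14 markers tested, the stiff group lay below the soft group in 5, above it in 1 (Adgre1) and overlapped it in 8. The largest falls in mean level were those of Lyz2 and Cd68. The part of macrophage RNA in the result for Ctss was not tested.

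Tpp1, which encodes a tripeptidyl peptidase, had 81.1, 77.8 and 77.4 FPKM in stiff gel, against 93.0, 85.3 and 88.1 FPKM in soft gel. Ctsc, which encodes a dipeptidyl peptidase that activates serine proteases, had 100.5, 107 and 104 FPKM in stiff gel, against 109, 116 and 115 FPKM in soft gel. Both separated the groups with log2 fold changes of -0.17 and -0.12, and neither passed the adjusted threshold (0.199 and 0.301 in limma). The 2 proteases whose groups overlapped were Ctsz, a carboxypeptidase gene at 55.6 ± 5.91 FPKM in stiff gel and 63.0 ± 4.41 FPKM in soft gel (SD, n = 3 each), and Ctsh, an aminopeptidase gene at 228 ± 9.65 FPKM in stiff gel and 244 ± 25.3 FPKM in soft gel. The log2 fold changes of all 9 proteases stayed below 0 under each scaling and without each library.

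**Figure D3:**
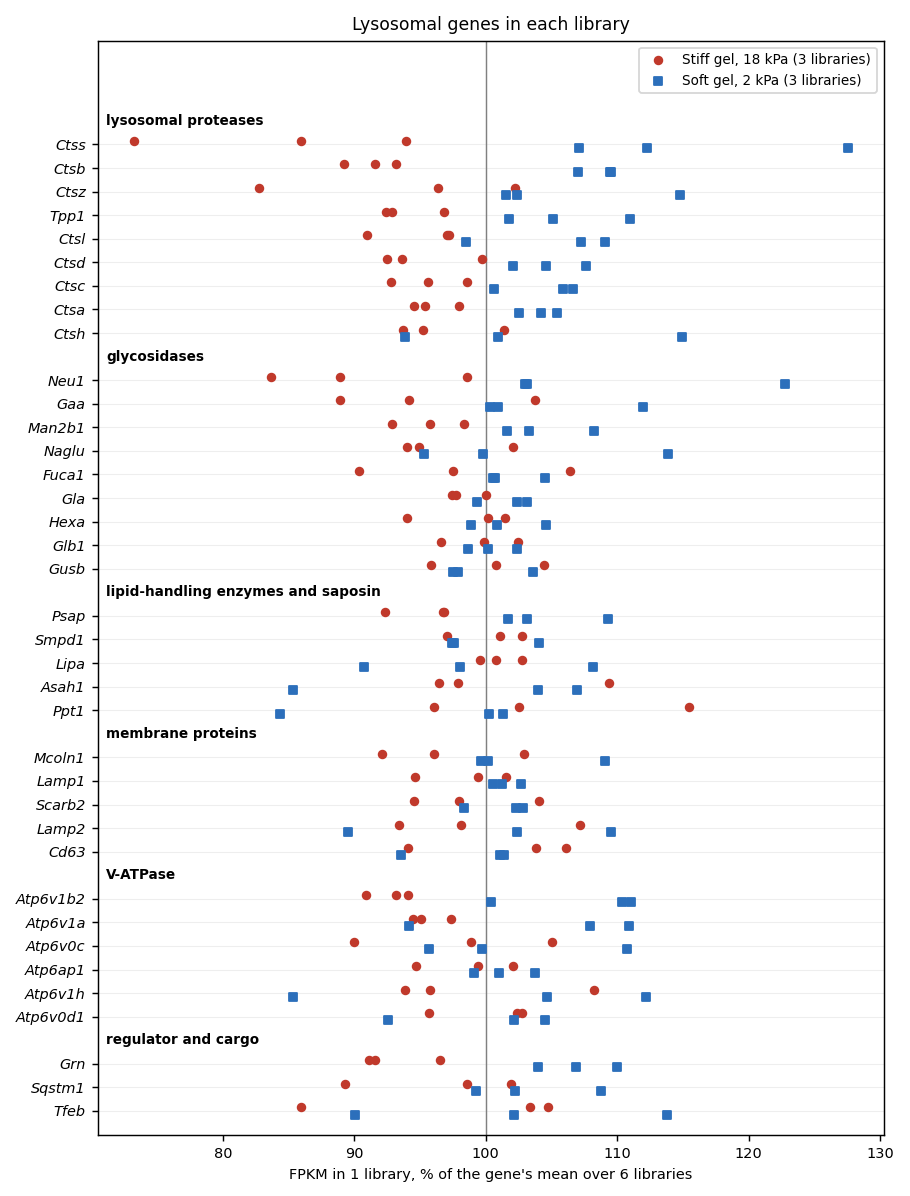
FPKM in each library as a percentage of the gene's mean over the 6 libraries, for the 37 lysosomal genes in their 6 classes, with stiff gel as red circles above soft gel as blue squares. In 12 genes, 7 of them proteases, all 3 stiff libraries lie left of all 3 soft libraries.

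Of 9 glycosidases, enzymes that trim sugars from glycoproteins, glycolipids and glycosaminoglycans, none passed limma's adjusted threshold, and 2 were lower at an unadjusted p under 0.05 (0 called with voom). The class median was -0.06, with 8 of 9 below 0. Neu1, which encodes the lysosomal sialidase, had 22.9, 21.5 and 25.4 FPKM in stiff gel, against 31.6, 26.6 and 26.5 FPKM in soft gel. Its groups did not overlap, although soft replicate 1 stood above the other soft libraries, and its log2 fold change was -0.27 (adjusted p = 0.233 in limma). Man2b1, which encodes acid alpha-mannosidase, had 96.5, 99.5 and 102 FPKM in stiff gel, against 112, 107 and 106 FPKM in soft gel. The separation was narrow, at a log2 fold change of -0.12 (adjusted p = 0.301 in limma).

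The most abundant glycosidase genes did not separate the groups. Fuca1, which encodes alpha-fucosidase, had 166, 153 and 181 FPKM in stiff gel, against 177, 171 and 171 FPKM in soft gel. Gaa, which encodes the glycogen-cleaving acid alpha-glucosidase, had 174, 149.6 and 158 FPKM in stiff gel, against 188, 169.8 and 169 FPKM in soft gel. Their log2 fold changes were -0.06 and -0.13. Hexa (hexosaminidase A subunit), Gla (alpha-galactosidase), Naglu (a heparan sulfate glycosidase), Glb1 (beta-galactosidase, the enzyme behind the common senescence stain) and Gusb (beta-glucuronidase) had log2 fold changes between -0.08 and 0.01. Glb1 was at 74.5 ± 2.20 FPKM in stiff gel and 75.0 ± 1.40 FPKM in soft gel (SD, n = 3 each), with a log2 fold change of -0.01 and a 95% interval of -0.12 to 0.10.

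Among the 5 lipid-handling genes, Psap was the 1 with a log2 fold change below 0. Psap encodes prosaposin, the precursor of the saposins that present sphingolipids to their hydrolases. It had 1019.5, 973 and 1020.4 FPKM in stiff gel, against 1152, 1072 and 1087 FPKM in soft gel. The groups did not overlap, and the log2 fold change was -0.14 (adjusted p = 0.252 in limma). Smpd1, which encodes acid sphingomyelinase, had 112, 108 and 114 FPKM in stiff gel, against 115, 108 and 108 FPKM in soft gel. Its groups overlapped, the 95% interval of its log2 fold change was -0.11 to 0.13, and the sign of that change (0.01) turned when FPKM sums were made equal (-0.04) or distributions quantile normalized (-0.06).

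Asah1 (acid ceramidase), Lipa (the acid lipase that frees cholesterol from its esters) and Ppt1 (a thioesterase that removes palmitate from proteins) had log2 fold changes of 0.04, 0.03 and 0.13. Ppt1 was the highest of the 37, at 67.9 ± 6.41 FPKM in stiff gel and 61.8 ± 6.16 FPKM in soft gel (SD, n = 3 each), and its groups overlapped (adjusted p = 0.550 in limma). In all 3 genes soft replicate 1 was the lowest of the 6 libraries. The class median of 0.03 became -0.02 at equal FPKM sums and -0.03 without soft replicate 1, so it had no stable direction.

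None of the 5 membrane protein genes had an unadjusted p under 0.05, and voom called none. Cd63, which encodes a tetraspanin of late endosomes, lysosomes and exosomes, had 1005, 910.4 and 1027 FPKM in stiff gel, against 982, 906 and 978 FPKM in soft gel. Lamp1, which encodes one of the major glycoproteins of the lysosomal membrane and whose promoter held 5 CACGTG elements, had 209.6, 220.2 and 225 FPKM in stiff gel, against 224, 227 and 223 FPKM in soft gel. Mcoln1, the gene of a calcium release channel and a known Tfeb target, had 28.2, 27.0 and 30.2 FPKM in stiff gel, against 32.0, 29.2 and 29.4 FPKM in soft gel. The groups overlapped in each, with log2 fold changes of 0.04, -0.04 and -0.08, and that of Cd63 turned below 0 with equal FPKM sums (-0.01) and quantile normalization (-0.03). Lamp2, the partner of Lamp1 that also serves chaperone-mediated autophagy, was at 212 ± 14.9 FPKM in stiff gel and 214 ± 21.6 FPKM in soft gel (SD, n = 3 each). Scarb2, which encodes the carrier of glucocerebrosidase, was at 74.6 ± 3.63 FPKM in stiff gel and 76.3 ± 1.84 FPKM in soft gel, with a 95% interval of -0.16 to 0.09.

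The V-ATPase consists of a membrane ring, V0, through which protons pass, and a peripheral part, V1, that splits ATP. Atp6v1b2, which encodes the B subunit of V1, was the 1 of 6 genes with an unadjusted p under 0.05. It had 38.5, 37.6 and 38.9 FPKM in stiff gel, against 41.5, 45.9 and 45.7 FPKM in soft gel. The groups did not overlap, and the log2 fold change was -0.20 (adjusted p = 0.168 in limma). Atp6v1a, which encodes the catalytic A subunit that pairs with B, was at 37.3 ± 0.591 FPKM in stiff gel and 40.7 ± 3.48 FPKM in soft gel (SD, n = 3 each), with soft replicate 1 below all 3 stiff libraries and a log2 fold change of -0.12 (adjusted p = 0.477 in limma).

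The most abundant V-ATPase genes showed no separation. Atp6v0c, which encodes the proteolipid of the V0 ring, had 310.4, 282 and 329.8 FPKM in stiff gel, against 348, 300.3 and 313 FPKM in soft gel. Atp6ap1, which encodes an assembly factor of V0, had 128, 122 and 131 FPKM in stiff gel, against 133, 129.8 and 127 FPKM in soft gel. Atp6v0c varied among replicates by more than the groups differed, and its log2 fold change of -0.06 came to 0.00 without soft replicate 1 and without stiff replicate 2. Atp6v0d1, of the V0 stalk, and Atp6v1h, a regulatory V1 subunit, had log2 fold changes of 0.01 and -0.01. Per length, mean levels of the 6 V-ATPase genes ran from 29.9 FPKM for Atp6v1h to 314 FPKM for Atp6v0c.

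Grn and Sqstm1 are a cargo protein and a cargo receptor of the lysosome. Grn (ENSRNOG00000021031, chromosome 10 from 90376933 to 90383205, plus strand) encodes progranulin, a secreted glycoprotein that is carried to lysosomes and cut into granulins there. It had 366, 365 and 386 FPKM in stiff gel, against 440.2, 416 and 428 FPKM in soft gel. Its means were 373 ± 11.98 FPKM in stiff gel and 428 ± 12.1 FPKM in soft gel (SD, n = 3 each), the groups did not overlap, and the log2 fold change was -0.20 with a 95% interval of -0.31 to -0.09. The adjusted p was 0.110 in limma and lay between 0.0280 and 0.309 over the alternatives, among them 0.0456 with voom on recovered reads and 0.0386 with quantile normalization. Sqstm1, which encodes the autophagy receptor p62, had 265, 239.7 and 274 FPKM in stiff gel, against 292, 267 and 274 FPKM in soft gel. Its groups overlapped, at a log2 fold change of -0.10 (adjusted p = 0.517 in limma).

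Replicates of the 37 genes were close to each other, with a median coefficient of variation of 4.05% in stiff gel and 4.68% in soft gel and at most 13.7%. Soft replicate 1 had the highest level of all 6 libraries in 19 genes and the lowest in 6. On the first principal component of all genes tested, the soft libraries lay below 0 and the stiff libraries above 0, at 10.3 to 14.2. Soft replicate 1 lay farthest out, at -20.9, against -8.22 and -7.98 for soft replicates 2 and 3. Mitochondrial genes took 2.15% of the reads of soft replicate 1 and 2.85% to 3.33% of the reads elsewhere. Without it, the median log2 fold change of the 37 was -0.06, 30 lay below 0 and none was called. Recovered reads came to between 14966354 and 16711527 per library, and each of the 37 genes had at least 143 reads in every library.

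In 7 further lists of lysosomal and related genes, chosen with earlier results of these data known, most log2 fold changes also lay below 0. Over all genes tested, 49.6% lay below 0 and 6.95% were lower at an unadjusted p under 0.05. None of the genes in these 7 lists passed the test in limma. Cd68, a lysosomal glycoprotein gene listed with the macrophage markers, did and is given with them. Of 22 other hydrolases tested, 19 lay below 0, with a median of -0.09 and 5 lower at an unadjusted p under 0.05; Arsb, an arylsulfatase gene that acts on dermatan sulfate, had the smallest p, at 39.0 FPKM in stiff gel and 44.5 FPKM in soft gel (adjusted p = 0.130 in limma). Ctsk, which encodes the collagen-degrading cathepsin K, was at 200.1 FPKM in stiff gel and 199 FPKM in soft gel, with a log2 fold change of 0.01. Of 15 other membrane proteins, 11 lay below 0 and 3 were lower at an unadjusted p under 0.05, led by Sidt2, at 48.7 FPKM in stiff gel and 56.5 FPKM in soft gel. Of 12 other V-ATPase subunits tested, 10 lay below 0, and 8 without soft replicate 1. Atp6v0e2 was higher at an unadjusted p under 0.05, at 5.76 FPKM in stiff gel and 4.41 FPKM in soft gel (adjusted p = 0.135 in limma). Tcirg1, the a3 subunit of osteoclasts and other cells, was lower by that rule, at 31.7 FPKM in stiff gel and 36.6 FPKM in soft gel (adjusted p = 0.245 in limma). Atp6v0d2, also listed as an osteoclast marker, was under the level filter and not tested. It was at 0.538 FPKM in stiff gel and 1.36 FPKM in soft gel, on 9 to 33 reads per library, and its groups did not overlap.

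Sorting, nutrient sensing and autophagy genes also gave no call. Of 14 genes that sort enzymes to the lysosome, 13 lay below 0 (10 without soft replicate 1) and 2 were lower at an unadjusted p under 0.05. Igf2r, the large mannose 6-phosphate receptor, was at 152 FPKM in stiff gel and 171 FPKM in soft gel (adjusted p = 0.20 in limma). Of 15 genes of the MiT/TFE factors and the lysosomal anchor of the growth kinase mTORC1, 10 lay below 0, and 8 without soft replicate 1. At an unadjusted p under 0.05, 3 were lower and 1 higher. Flcn, the folliculin gene, was at 17.4 FPKM in stiff gel and 20.9 FPKM in soft gel (adjusted p = 0.113 in limma). Of 21 autophagy genes, 11 lay below 0, near the 49.6% of all genes tested, with a median of -0.02. Optn, an autophagy receptor gene, was at 22.5 FPKM in stiff gel and 25.8 FPKM in soft gel (adjusted p = 0.165 in limma). Of 16 late endosome fusion genes, 12 lay below 0 and none had an unadjusted p under 0.05, the smallest being that of Vps11, at 20.7 FPKM in stiff gel and 22.8 FPKM in soft gel. Over these 115 genes of 7 lists, 86 lay below 0, 16 were lower and 2 higher at an unadjusted p under 0.05, none was called by limma and 1, Fnip2, was called lower by voom on recovered reads. The median over the 115 was -0.07. Without soft replicate 1 that median was -0.06, and 81 lay below 0.

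Most markers of the labelled cells were abundant. Of 12 stromal markers, Nt5e and Eng were less abundant, with means over the 6 libraries of 15.3 and 16.5 FPKM, and Lepr, at 0.122 FPKM, was under the level filter. Abundant ones included Col3a1 (a fibrillar collagen) at 4684 FPKM in stiff gel and 4273 FPKM in soft gel, and Vim (vimentin), the 1 called gene of 11 stromal markers tested, at 2012 FPKM in stiff gel and 1572 FPKM in soft gel (log2 fold change 0.36, adjusted p = 0.0246 in limma, and 0.0890 to 0.138 without any 1 library other than soft replicate 1). Of the 11 stromal markers tested, 8 lay above 0 and 3 below, with a median log2 fold change of 0.13. With equal FPKM sums, 5 of the 11 lay below 0. In limma 4 of the 11 were higher at an unadjusted p under 0.05 and none lower. By that rule 8.46% of all genes tested were higher and 6.95% lower. Endothelial markers were all under the level filter, the highest being Tie1 with a mean of 0.771 FPKM. Of 10 osteoclast markers, 4 passed the filter and none was called (1 had an unadjusted p under 0.05, and voom called none). Mmp9, a gelatinase gene, was at 234 FPKM in stiff gel and 263 FPKM in soft gel. Calcr and Dcstamp, also on the osteoclast list, were listed at 0 in every library.

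Macrophage markers were present, and their summed level differed in the same direction as that of the lysosomal genes. Of 18 markers found, 14 were tested, 10 lay below 0, and 3 were called lower and 1 higher by limma. The groups overlapped in 8 of the 14. Log2 fold changes lay within 0.1 of 0 in 4, namely Csf1r (0.01), Cd14 (0.02), Laptm5 (-0.04) and Mrc1 (-0.06). The calls of Cd68 and Cd53 held without soft replicate 1 (adjusted p = 0.0330 and 0.0215), and all 4 calls ended in the other 5 fits that left out a library. Cd68, whose product is itself a glycoprotein of the lysosomal membrane, had 26.2, 29.3 and 27.5 FPKM in stiff gel, against 44.3, 39.0 and 37.8 FPKM in soft gel (adjusted p = 0.0246 in limma). Cd53 had 7.98, 8.70 and 7.91 FPKM in stiff gel, against 11.4, 12.7 and 13.6 FPKM in soft gel and Itgb2, a leukocyte integrin subunit gene, had 19.7, 18.5 and 18.7 FPKM in stiff gel, against 24.3, 25.4 and 23.7 FPKM in soft gel. The call of Itgb2 ended without soft replicate 1 (adjusted p = 0.0642 in limma). Adgre1, which encodes the F4/80 antigen, went the other way, with 85.5, 86.7 and 82.4 FPKM in stiff gel, against 66.9, 69.5 and 70.5 FPKM in soft gel, a call that ended with equal FPKM sums (adjusted p = 0.0752 in limma), with quantile normalization (0.0870) and without soft replicate 1 (0.0610). The most abundant marker was Lyz2 (lysozyme), with 112, 117 and 129 FPKM in stiff gel, against 148, 153 and 146 FPKM in soft gel (adjusted p = 0.0606 in limma), and it was called lower with voom (0.0290), equal FPKM sums (0.0302) and quantile normalization (0.0264), in a range of 0.0175 to 0.194 over the alternatives. The 18 markers summed to 417, 425 and 445 FPKM in the stiff libraries, against 475, 480.1 and 473 FPKM in the soft libraries, so these groups did not overlap either. The largest falls in mean level, stiff minus soft, were those of Lyz2 (-29.6 FPKM) and Cd68 (-12.7 FPKM). The largest rise was that of Adgre1 (15.9 FPKM). C1qa, C1qb, C1qc and Cd163 were all below 1 FPKM on average, and none of the 18 was at 0 in all libraries. The part of RNA from another cell type in the levels of Ctsb, Ctss, Grn and the other lysosomal genes was not tested.

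**Figure D4:**
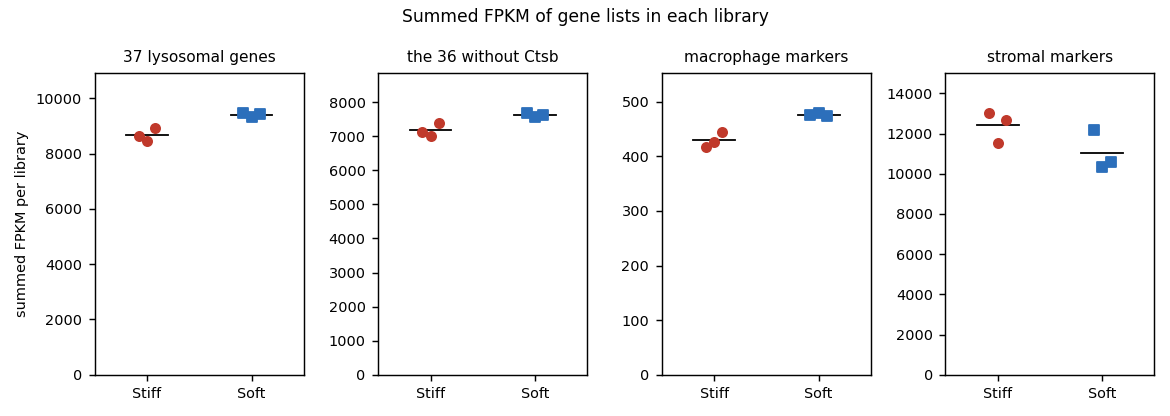
Summed FPKM in each library for the 37 lysosomal genes, the 36 without Ctsb, 18 macrophage markers and 12 stromal markers, with stiff gel left of soft gel, points for libraries and black lines for group means. The lysosomal sums lie at 8461 to 8910.0 in stiff gel and 9311 to 9484 in soft gel, the macrophage sums at 417 to 445 in stiff gel and 473 to 480.1 in soft gel, and the stromal sums overlap.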

How the data were processed

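PolyA RNA of 6 libraries, 3 per group, was deposited as a table of FPKM, 1 column per library. Per the submitters' processing notes, the authors used Bowtie 0.12.9, Cufflinks 2.1.1 and HTSeq, with no roles given; the builds listed there, mm10 and GRCm38, are of mouse, whereas the deposited table carries rat Ensembl identifiers and names no build, so its coordinates are given as they stand. The sources used here do not say how multiply mapped reads and strand were treated.

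Stiff was compared with soft on log2(FPKM + 1) with limma 3.58.1 (R 4.3.3). The model held group alone, the moderated variance followed an intensity trend, and two-sided p-values were adjusted by Benjamini-Hochberg, at 0.05, over the 12713 genes that averaged 1 FPKM or more. A change on this scale understates that of low genes. Multiplied by gene length, 100% of FPKM values were whole multiples of 1 read within 0.0001, and these recovered reads served for depth and for voom. Replicates of a group differed beyond sampling noise, by a chi-square over genes per degree of freedom. It was 3.57 for soft replicates 2 and 3, and 5.19 to 8.18 for the stiff pairs. Soft replicate 1 differed most, at 15.8 against soft replicate 2 and 12.7 against soft replicate 3. The fit was tested on simulated data with 100 planted log2 fold changes of size 1 and 100 of size 0.5. It called 89% of the former and 43% of the latter, with 3 false calls among 135. No smaller change was planted, so the share of smaller changes that the fit would call is not known. The simulated noise was normal and independent between genes and libraries, with a spread set by level alone. It held no deviant library such as soft replicate 1, so these shares may not carry over to the real libraries. The 37 genes and 11 further lists were chosen with earlier results of these data known; 10 of the 177 list genes had no matching name and were not analysed here. Values in every library are given for genes with an adjusted or unadjusted p under 0.05, the 2 most abundant of each class, and Tfeb, Mcoln1, Sqstm1 and Grn. From the related lists, called genes and the gene with the smallest p are named, and from marker lists, called genes and the most abundant, some by group means alone. Ctsk, Tcirg1, Tfe3, Mitf, Fnip2, Nt5e, Eng, Lepr, Atp6v0d2, Csf1r, Cd14, Laptm5, Mrc1 and the markers given as absent or low were named after their values were seen. Alternatives changed the pseudocount, filter, scaling, variance model, library weights, replicate term and test, and left out each library in turn.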

Additional observations from a re-analysis of the deposited data

How the results depend on the processing

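The direction of the 37 genes as a group held in all 16 alternatives, while the call of Ctsb did not. Changing the filter, dropping the intensity trend and adding the replicate block left each gene's log2 fold change as it was. Those settings could not turn a direction, so only the others bear on it. The median log2 fold change of the 37 was -0.13 with equal FPKM sums, where the median of all genes was -0.04, -0.11 with quantile normalization, and between -0.117 and -0.0625 without each library in turn; 24 genes were below 0 in every alternative that tested them. The number called lower, 1 as reported, was 0 without a level filter, without the intensity trend and with the replicate block, 3 with quantile normalization (Ctsb, Ctsd and Grn), 5 with array weights (Ctsb, Ctsl, Grn, Atp6v1b2 and Ctss), 2 with voom, and 0 without each library in turn. None of the 37 was called higher in any of them.

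Over all genes, the counts higher and lower were 71 and 21 without a filter, 85 and 27 without the trend, 430 and 255 with array weights, and 78 and 27 with the replicate block; voom gave 128 lower. Without soft replicate 1 they were 116 higher and 43 lower. Without any 1 of the other libraries they ran from 20 to 43 higher and from 7 to 13 lower, so the loss of calls differed with the library left out. Same-numbered libraries did not deviate together (correlations of 0.06, 0.12 and -0.08 for replicates 1 to 3), so the numbers do not show a pairing, and the block gave Ctsb an adjusted p of 0.0632.

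Signs turned for genes near 0. Smpd1 had -0.0401 with equal FPKM sums, -0.0609 with quantile normalization and -0.00727 with voom, and ran from -0.00867 to 0.0396 without each library; Cd63 had -0.0122 with equal sums and -0.0251 with quantile normalization, and ran from -0.000564 to 0.0900 without each library. Without each library, Fuca1 ran from -0.117 to 8.93e-06, Atp6v0c from -0.110 to 0.00166 and Tfeb from -0.119 to 0.0288. The cause of these shifts was not tested. With 3 libraries a group, differences well within the 95% intervals given could not be resolved.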
